A study of Mus musculus with 8 samples.

Results

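The genes described here are 8 genes of the NADPH oxidase and nitric oxide synthase systems of the gut epithelium: Duox2, Duoxa2, Duox1, Nos2, Nox1, Noxo1, Noxa1 and Cyba. They were chosen by name, with their counts and their difference between Sox4-deficient and control epithelium in each gate already known. That difference is therefore given as a description, with no test. All 8 were found among the 23366 gene symbols of the count tables, and all 8 passed the filter on low counts that left 20427 genes. The study sequenced RNA of intestinal epithelial cells from male littermate mice aged 6 weeks, 4 animals in all. Sox4cKO animals carried floxed Sox4 alleles (Sox4 fl/fl) with villin-Cre, a recombinase made under the villin promoter, which is active in the gut epithelium. Control animals carried Sox4 fl/fl without Cre, so the floxed alleles were common to every group. CD326+ (epithelial) cells of each animal were sorted into a CD44+ gate, enriched for crypt cells, and a CD44- gate, enriched for villus cells. The 4 groups were thus Sox4cKO CD44plus, control CD44plus, Sox4cKO CD44minus and control CD44minus, with 2 libraries each. Values are given in the order replicate 1 and replicate 2, and a replicate number marks the animal within a genotype.

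Dual oxidases sit in the apical membrane of epithelial cells and release hydrogen peroxide towards the lumen. DUOX2 needs the maturation factor DUOXA2 to leave the endoplasmic reticulum, and DUOX1 needs DUOXA1. NOX1 makes superoxide together with the membrane subunit p22phox, encoded by Cyba, the organiser NOXO1, the activator NOXA1 and a Rac GTPase. The inducible nitric oxide synthase NOS2 makes nitric oxide from arginine. Duox2 and Nos2 are known to be induced in the gut epithelium by microbes and cytokines, and Nox1 is known mainly from the colon.

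Duox2 (chr2:122279247-122298449, minus strand, 33 merged exons) and Duoxa2 (chr2:122298900-122302885, plus strand) are neighbours on GRCm38 (mm10), transcribed away from each other from start sites 451 bp apart in GENCODE and 673 bp apart in RefSeq. Their promoter windows are shown because their RNA moved together across all libraries. Each window runs from 250 bases before to 50 after the RefSeq start site (GRCm38.p6), at chr2:122298178-122298477 on the minus strand for Duox2 and chr2:122298650-122298949 on the plus strand for Duoxa2. Capitals mark every match to the motifs searched.
Duox2: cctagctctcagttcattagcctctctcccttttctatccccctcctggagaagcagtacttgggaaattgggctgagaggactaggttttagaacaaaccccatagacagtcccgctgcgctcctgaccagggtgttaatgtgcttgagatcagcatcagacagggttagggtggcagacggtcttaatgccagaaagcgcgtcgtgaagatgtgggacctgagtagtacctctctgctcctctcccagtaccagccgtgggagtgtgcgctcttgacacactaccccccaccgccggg
Duoxa2: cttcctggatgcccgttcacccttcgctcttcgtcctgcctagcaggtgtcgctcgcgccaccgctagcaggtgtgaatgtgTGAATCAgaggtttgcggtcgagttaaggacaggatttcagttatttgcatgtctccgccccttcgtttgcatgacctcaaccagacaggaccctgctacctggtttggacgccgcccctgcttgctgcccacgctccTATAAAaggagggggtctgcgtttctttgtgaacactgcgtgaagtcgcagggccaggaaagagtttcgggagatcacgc
The Duoxa2 window held the AP-1 motif TGANTCA, as TGAATCA from position -168 relative to the start site. It also held TATAAA, the TATA box, from position -30. The Duox2 window held neither these nor the other motifs searched on both strands, which were GGG followed by 5 bases of any kind and CC (NF-kB), TTCNNNGAA (STAT), AACAAT and AACAAAG (SOX) and TTTATG (CDX). Of 32851 promoter windows in the RefSeq table, 7.81% held TGANTCA, 13.6% TATAAA, 50.8% the NF-kB motif, 8.3% TTCNNNGAA, 10.7% AACAAT, 5.85% AACAAAG and 11.9% TTTATG. The table held windows for 7 of the 8 genes, without Nos2 (chr11:78920787-78960254, plus strand).

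The libraries differed in depth and in background. Gene counts per library were 6007554 to 13238050 in CD44plus and 886194 to 6963345 in CD44minus. Olfactory and vomeronasal receptor genes, taken as a measure of background, had 67.2 to 353 CPM of gene counts in CD44plus and 183 to 4065 CPM in CD44minus. Sox4cKO CD44minus replicate 2 stood apart: its receptor level was the lowest of its gate, its TMM scaling factor was 0.527 against 1.09 to 1.72 in the rest of the gate, and it lay among the CD44plus libraries on the first principal component. Its level of 5 epithelial markers (Epcam, Vil1, Cdh1, Krt8 and Krt20) summed to 17643 CPM against 3119 to 6515 CPM in the rest of the gate. The TMM factor is part of that gap. Before scaling, the markers had 64757 of 6963345 gene counts in that library. The rest of the gate had 6352 of 1175251 in Sox4cKO replicate 1, and 4630 of 886194 and 16573 of 2327002 in control. In Sox4cKO CD44plus replicate 2 lists of immune cell genes were highest of all libraries: 6 T cell genes summed to 4049 CPM against 1540 to 2296 CPM in the other CD44plus libraries, and 5 mast cell genes to 17499 CPM against 1884 to 3636 CPM. Sox4, the deleted gene, was at 17.8 and 25.7 CPM in Sox4cKO CD44plus against 128 and 120.2 CPM in control CD44plus. In CD44minus Sox4 gave 4 and 1 reads in Sox4cKO against 10 and 21 reads in control. Background predicted 14.8 and 3.95 reads in Sox4cKO CD44minus and 9.82 and 9.70 in control CD44minus, so the loss is read from CD44plus alone.

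Duox2 and its maturation factor Duoxa2 were higher in Sox4cKO than in control in both gates, 2.09-fold and 2.44-fold in CD44plus and 3.88-fold and 3.10-fold in CD44minus. Nos2 was 5.90-fold higher in the villus-enriched CD44minus gate. The NOX1 complex genes differed less than Duox2 and Duoxa2, apart from Cyba in CD44minus (3.15-fold, with overlap). Levels are CPM, the reads of a gene scaled to a common library total after trimmed mean of M values (TMM) scaling. In CD44plus, 3 of the 8 genes (Duox2, Duoxa2 and Cyba) were above both controls in both Sox4cKO libraries, 1 (Noxa1) was below and 4 overlapped. Over all genes tested, 14.2% lay above and 16.4% below without overlap in that comparison. In CD44minus, 4 of the 8 (Duox2, Duoxa2, Nos2 and Noxa1) lay above and 3 overlapped, beside 6.52% above and 5.94% below over all genes. Nox1 lay below there on reads at background, and no direction is read from it. Duox2 and Duoxa2 lay above in both gates, as did 217 genes in all, 1.06% of those tested. These counts describe genes that were listed for this difference, and nothing is read from them. In bulk libraries of this kind, fewer cells of a type and less RNA per cell cannot be told apart.

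Over all genes, edgeR's quasi-likelihood test called 0 of 20427 (0.0%) between genotypes in either gate. Even the deleted gene Sox4 was not called in CD44plus, at a log2 fold change of -2.51 (SE 0.61). The absence of calls therefore does not show that no gene differed between genotypes. At an unadjusted p under 0.05 there were 128 genes in CD44plus and 116 in CD44minus, and DESeq2 and limma-voom also called 0 in both. The median log2 fold change, Sox4cKO over control, of the 8 genes was 0.58 in CD44plus against -0.00052 for all genes, and 1.37 in CD44minus against 0.19 for all genes. In each gate 6 of the 8 were positive.

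Duox2, the main dual oxidase of the gut, was at 309 and 174 CPM in Sox4cKO CD44plus against 92.6 and 139 CPM in control CD44plus. In CD44minus it was at 234 and 658 CPM in Sox4cKO against 62.0 and 167 CPM in control. The higher value of Sox4cKO CD44minus replicate 2 came with the TMM scaling. Before scaling, Duox2 had 473 of 1175251 gene counts in Sox4cKO CD44minus replicate 1 and 2414 of 6963345 in replicate 2, a smaller share. Both Sox4cKO libraries lay above both control libraries in each gate. The margin was smallest in CD44plus, between 174 CPM in Sox4cKO replicate 2 and 139 CPM in control replicate 2. The log2 fold change was 1.06 (SE 0.85) in CD44plus and 1.96 (SE 0.87) in CD44minus. The CD44plus value was 0.50 without Sox4cKO CD44plus replicate 1, and the CD44minus value was 1.01 without Sox4cKO CD44minus replicate 2. Across 18 alternative settings the difference kept its sign, from 0.50 to 1.42 in CD44plus and from 1.01 to 2.84 in CD44minus.

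Duoxa2, whose product brings DUOX2 to the membrane, was at 36.6 and 21.0 CPM in Sox4cKO CD44plus against 9.74 and 13.9 CPM in control CD44plus. In CD44minus it was at 23.8 and 70.8 CPM in Sox4cKO against 6.74 and 23.2 CPM in control. The groups did not overlap in either gate, though in CD44minus the margin between Sox4cKO replicate 1 and control replicate 2 was small. The log2 fold change was 1.29 (SE 0.65) in CD44plus and 1.63 (SE 0.68) in CD44minus. The CD44plus value was 0.74 without Sox4cKO CD44plus replicate 1, and the CD44minus value was 0.60 without Sox4cKO CD44minus replicate 2. Of the merged Duoxa2 exons, 42.8% overlap Duoxa1 on the opposite strand, and whether reads were counted by strand is not given in the sources used here. Reads in the overlap may have been set aside as ambiguous or given to either gene, so the Duoxa2 count is uncertain. Duoxa1 itself had 0 to 18 reads per library, 0 to 1.99 times the number predicted from background.

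**Figure D1:**
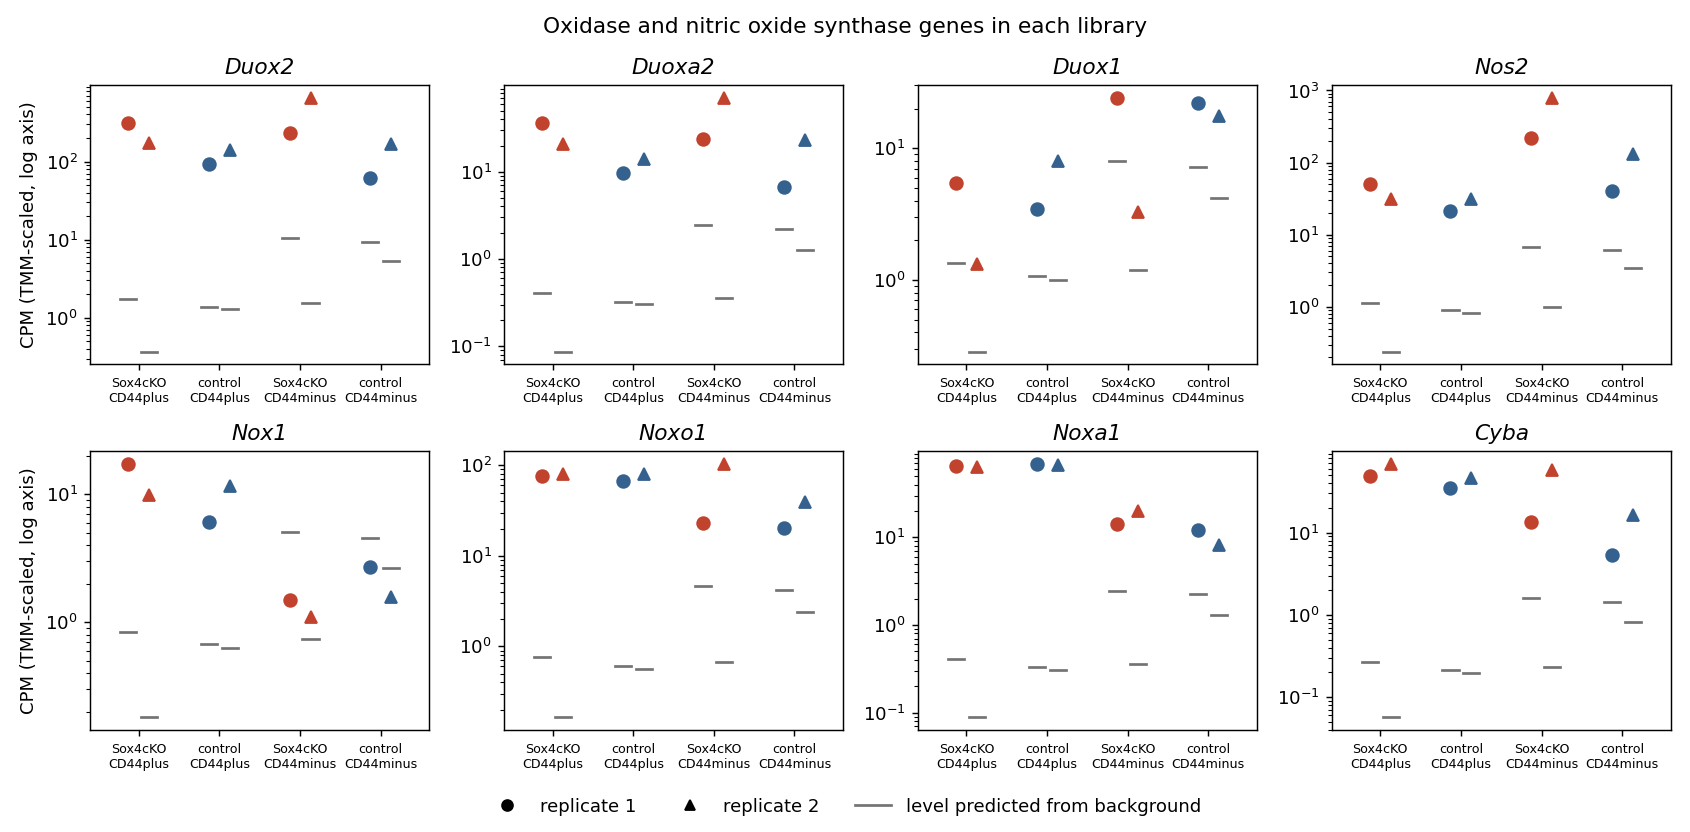
Level of each of the 8 genes in each library, in TMM-scaled CPM on a log axis, for Sox4cKO and control in the CD44plus and CD44minus gates (circle: replicate 1; triangle: replicate 2); grey bars mark the level predicted from receptor gene background in that library. Duox2 and Duoxa2 lay higher in Sox4cKO in both gates, Nos2 was highest in Sox4cKO CD44minus at 221 and 796 CPM, and Nox1 in CD44minus, at 1.09 to 2.69 CPM, was at about its background level.

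The 2 neighbours kept a nearly constant ratio of reads. Duoxa2 had 253 and 222 reads beside 2138 and 1838 Duox2 reads in Sox4cKO CD44plus, and 109 and 76 beside 1036 and 760 in control CD44plus. In Sox4cKO CD44minus it had 48 and 260 reads beside 473 and 2414 Duox2 reads, and in control CD44minus 10 and 59 beside 92 and 426. The ratio of Duoxa2 to Duox2 reads thus stayed between 0.100 and 0.138 in the 8 libraries, a 1.39-fold span, while the CPM of Duox2 and of Duoxa2 spanned 10.6-fold and 10.5-fold. Against the pooled ratio of 0.113 the chi-square statistic of the reads was 6.11 on 7 degrees of freedom, 0.873 per degree of freedom, where counting error alone gives about 1. As a share of the summed reads of both genes, Duoxa2 made up 10.6% (Wilson 95% interval 9.41% to 11.9%) in Sox4cKO CD44plus replicate 1. The highest share was 12.2% (9.55% to 15.4%), in control CD44minus replicate 2. Intervals cover counting error only, since the reads carry no molecular identifiers. Per kilobase of merged exon the Duoxa2 level was 0.425 to 0.589 of that of Duox2, which would be too low if reads in the Duoxa1 overlap were set aside.

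Nos2 did not follow Duox2. The ratio of Nos2 to Duox2 reads was 0.165 and 0.180 in Sox4cKO CD44plus and 0.231 and 0.228 in control CD44plus. It was 0.945 and 1.21 in Sox4cKO CD44minus and 0.652 and 0.784 in control CD44minus. The gates were therefore apart in both genotypes, and the span over all libraries was 7.35-fold, with a chi-square statistic of 305 per degree of freedom.

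**Figure D2:**
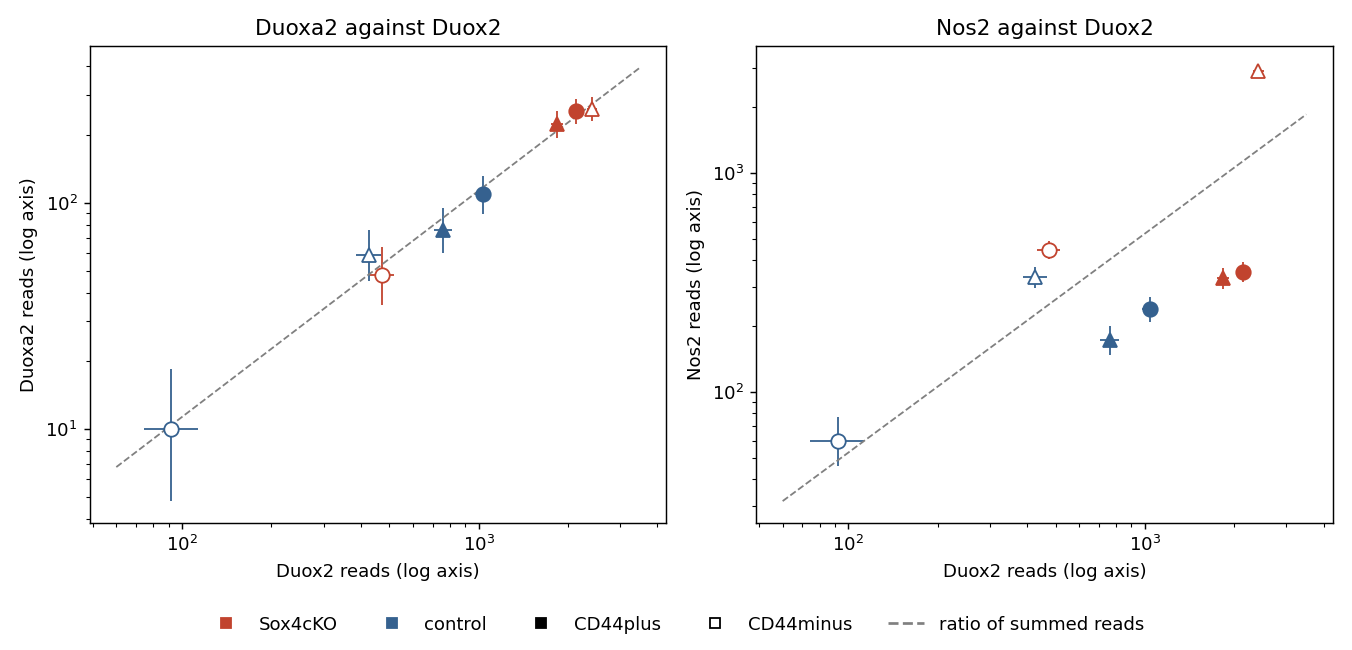
Reads of Duoxa2 (left) and Nos2 (right) against reads of Duox2 in each of the 8 libraries, on log axes with exact Poisson 95% intervals of the counts; the dashed line is the ratio of the reads summed over all libraries. The Duoxa2 points lie along the line at ratios of 0.100 to 0.138, whereas the Nos2 points fall above it in CD44minus and below it in CD44plus.

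Nos2, the inducible nitric oxide synthase, was at 221 and 796 CPM in Sox4cKO CD44minus against 40.4 and 131 CPM in control CD44minus. In CD44plus it was at 50.9 and 31.3 CPM in Sox4cKO against 21.4 and 31.6 CPM in control. The genotypes did not overlap in CD44minus, and they overlapped narrowly in CD44plus. The log2 fold change was 2.56 (SE 0.87) in CD44minus and 0.63 (SE 0.83) in CD44plus. Without Sox4cKO CD44minus replicate 2, the library that stood apart, the CD44minus value was 1.34, and across 18 settings it ran from 1.34 to 3.64. Nos2 is also made by activated macrophages. The summed level of 11 phagocyte genes was 136 and 83.1 CPM in Sox4cKO CD44minus against 105 and 90.8 CPM in control CD44minus. In each Sox4cKO library 10 of 11 genes were read, 10 and 8 of them above background, with S100a8 at 0 in both. Background predicted 118 and 31.6 of the 275 and 305 summed reads in Sox4cKO CD44minus. In control CD44minus it predicted 78.6 and 77.6 of 156 and 231. Among the 11 genes, Cybb, the phagocyte NADPH oxidase gene, had 23 and 3 reads in Sox4cKO CD44minus against 9 and 12 reads in control CD44minus. The part of these cells in the Nos2 level was not tested.

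Duox1, the second dual oxidase, was read at a low level, with 12 to 49 reads per library, 2.76 to 8.09 times the number predicted from background. That multiple does not set it apart: the peroxidase gene Epx stood at 1.91 to 9.18 times its predicted background and the synthase gene Nos3 at 2.98 to 5.93 times. In CD44minus its CPM was lowest in Sox4cKO replicate 2, the library with the lowest receptor level of the gate. The part of background in the Duox1 reads was not tested. It was at 5.50 and 1.33 CPM in Sox4cKO CD44plus against 3.48 and 8.04 CPM in control CD44plus. In CD44minus it was at 24.3 and 3.27 CPM in Sox4cKO against 22.2 and 17.7 CPM in control. The genotypes overlapped in both gates, and the log2 fold changes were -0.76 (SE 0.94) in CD44plus and -0.56 (SE 0.93) in CD44minus. The CD44plus value was -2.17 without Sox4cKO CD44plus replicate 1 and -0.054 without replicate 2. The CD44minus value was -2.62 without Sox4cKO CD44minus replicate 1 and took the other sign (0.28) without replicate 2, so no direction is read for Duox1. Duox1 (chr2:122315672-122347972, plus strand) lies 17223 bp from Duox2, start to start. The ratio of Duox1 to Duox2 reads spanned 72.2-fold, a span that includes any background reads of Duox1.

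Among the parts of the NOX1 complex, Cyba had the largest log2 fold change between genotypes in CD44minus. In CD44plus that of Nox1 was larger (0.63), with overlap. Cyba (chr8:122424776-122432930, minus strand) encodes p22phox, which is also the partner of the phagocyte oxidase. It was at 48.6 and 68.9 CPM in Sox4cKO CD44plus against 34.8 and 46.4 CPM in control CD44plus, without overlap (log2 fold change 0.53, SE 0.65). In CD44minus it was at 13.4 and 56.9 CPM in Sox4cKO against 5.39 and 16.5 CPM in control, where the groups overlapped (1.66, SE 0.70, and 0.20 without Sox4cKO CD44minus replicate 2). Its highest CD44plus level was in Sox4cKO replicate 2, and without that library the CD44plus value was 0.26. The phagocyte list, with all 11 genes above background there, was highest in the same library, at 511 CPM against 164 to 276 CPM in the other CD44plus libraries. The part of these cells in the Cyba level was not tested.

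Noxo1 and Noxa1, the cytosolic organiser and activator of NOX1, differed little between genotypes in CD44plus. Noxo1 was at 76.2 and 80.1 CPM in Sox4cKO CD44plus against 67.1 and 80.4 CPM in control CD44plus (0.084, SE 0.67). Noxa1 was at 64.8 and 64.1 CPM against 69.5 and 66.7 CPM, a narrow gap with Sox4cKO lower (-0.079, SE 0.53). In CD44minus Noxo1 was at 23.3 and 105 CPM in Sox4cKO against 20.2 and 39.3 CPM in control, with overlap (1.10, SE 0.70). Noxa1 was at 14.4 and 19.9 CPM in Sox4cKO CD44minus against 12.1 and 8.26 CPM in control CD44minus, without overlap (0.77, SE 0.58). Noxo1 reached 105 CPM in Sox4cKO CD44minus replicate 2, and without that library its log2 fold change took the other sign (-0.39). Of the merged Noxo1 exons (chr17:24696234-24700529, plus strand), 70.4% overlap the ribosome assembly gene Tbl3 on the opposite strand, so its counts are uncertain.

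Nox1, the catalytic subunit, was read above background in CD44plus alone. It had 120 and 104 reads (17.4 and 9.85 CPM) in Sox4cKO CD44plus against 68 and 63 reads (6.08 and 11.5 CPM) in control CD44plus, 9.06 to 54.7 times the number predicted from background. In CD44minus it had 3 and 4 reads in Sox4cKO and 4 and 4 in control, where background predicted 10.2 and 2.73 and 6.77 and 6.69 reads. The exact Poisson 95% interval of 4 reads, 1.09 to 10.2, covers the prediction in the 3 libraries with that count. That of 3 reads, 0.619 to 8.77 in Sox4cKO CD44minus replicate 1, lies below the 10.2 predicted, so the prediction is too high for Nox1 in that library. The genotypes overlapped in CD44plus (0.63, SE 0.90), and no fold is read from CD44minus. Of the merged Nox1 exons (chrX:134086421-134221956, minus strand), 12.1% overlap Cstf2 on the opposite strand.

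**Figure D3:**
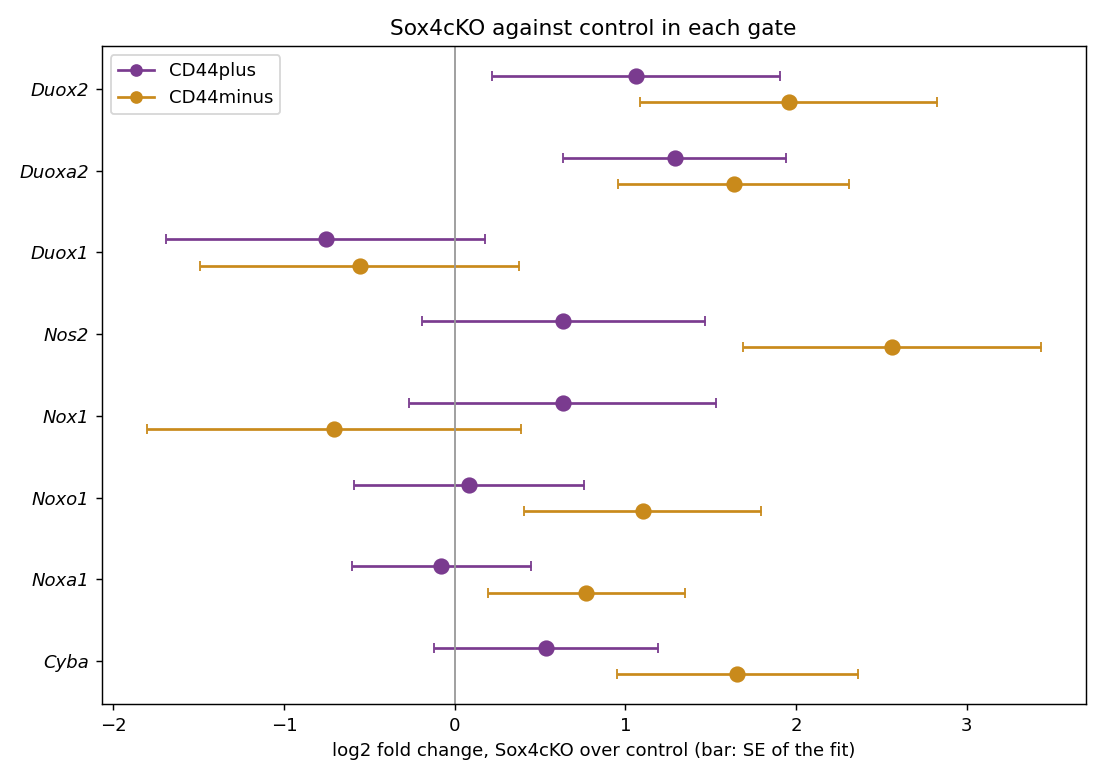
Log2 fold change, Sox4cKO over control, of each gene in the CD44plus and CD44minus gates, with the SE of the edgeR fit as bars. Duox2 (1.06 and 1.96), Duoxa2 (1.29 and 1.63) and Nos2 (0.63 and 2.56) lie to the right of 0 in both gates. The CD44minus value of Nox1 rests on 3 or 4 reads per library, at background, and that of Duox1 took the other sign (0.28) without Sox4cKO CD44minus replicate 2.

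Because the TMM-scaled level of epithelial genes differed between the CD44minus libraries, the genes were also set against the summed CPM of the 5 epithelial markers. The TMM factor cancels in this measure, which was chosen after the values were seen. On this scale Duox2 was at 5.95 and 3.81% in Sox4cKO CD44plus against 1.91 and 3.01% in control CD44plus, and at 7.45 and 3.73% in Sox4cKO CD44minus against 1.99 and 2.57% in control CD44minus. The Sox4cKO libraries lay above the controls in both gates, by 1.98-fold in CD44plus and 2.33-fold in CD44minus. Duoxa2 was 2.31-fold higher in CD44plus and 1.99-fold higher in CD44minus, again without overlap. Nos2 in CD44minus was at 7.04 and 4.51% in Sox4cKO against 1.30 and 2.02% in control, 3.49-fold higher without overlap and with the higher value in replicate 1. In CD44plus Nos2 overlapped between genotypes, and so did Cyba, at 0.935 and 1.51% in Sox4cKO against 0.720 and 1.01% in control, unlike in CPM. Cyba was 1.77-fold higher in CD44minus without overlap, and Noxo1, at 0.740 and 0.593% in Sox4cKO against 0.648 and 0.603% in control, was not. Beside these counts, 9.24% of all genes in CD44plus and 1.08% in CD44minus lay above without overlap on this scale, and 63 genes (0.308%) did so in both gates.

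**Figure D4:**
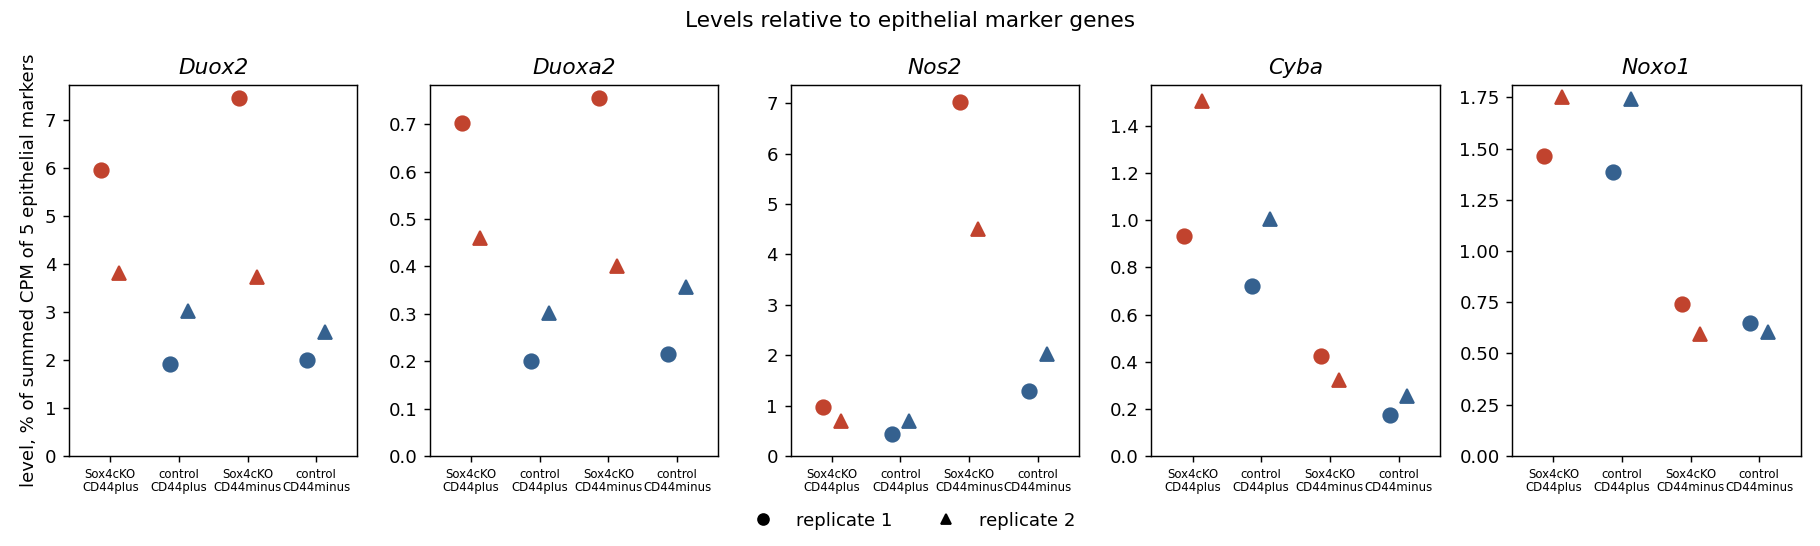
Level of Duox2, Duoxa2, Nos2, Cyba and Noxo1 as a percentage of the summed CPM of 5 epithelial marker genes in each library, on linear axes starting at 0 (circle: replicate 1; triangle: replicate 2). Nos2 in Sox4cKO CD44minus, at 7.04 and 4.51%, lies above all other libraries, and the 2 replicates of each genotype are closer in CD44minus than in CPM.

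Between the gates, 1 of the 8 genes was called in each genotype. In control, Noxa1 rose in CD44plus: it was at 69.5 and 66.7 CPM in control CD44plus against 12.1 and 8.26 CPM in control CD44minus, 6.75-fold higher (log2 2.75, SE 0.59, edgeR adjusted p = 0.0235). In control this was the call among the 8 genes, beside 2.46% of all genes called and 2.01% called higher. In Sox4cKO, Nos2 fell in CD44plus: it was at 50.9 and 31.3 CPM in Sox4cKO CD44plus against 221 and 796 CPM in Sox4cKO CD44minus, 12.4-fold lower (log2 -3.63, SE 0.91, edgeR adjusted p = 0.0413). In Sox4cKO this was the call among the 8 genes, beside 2.59% of all genes called and 0.93% called lower. Without overlap of the gates, 4 of the 8 lay higher in CD44plus and 2 lower in control, beside 38.7% and 41.0% of all genes. In Sox4cKO 2 lay higher and 1 lower, beside 21.1% and 16.2%. The higher ones include Nox1 in both genotypes, and the lower ones include Duox1 in control, where background may be part of its reads. These p-values rest on an estimate of the spread shared by all 4 groups of 2 libraries, with the gates of an animal treated as independent. The genes were listed with their counts in these same libraries known, among them the high Nos2 level in Sox4cKO CD44minus. The gate calls therefore describe the listed genes and are not an independent test of them.

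Nos2 in control lay the same way, at 21.4 and 31.6 CPM in control CD44plus against 40.4 and 131 CPM in control CD44minus (-1.70, SE 0.85, edgeR adjusted p = 0.23). Noxa1 in Sox4cKO was at 64.8 and 64.1 CPM in Sox4cKO CD44plus against 14.4 and 19.9 CPM in Sox4cKO CD44minus (1.90, SE 0.55, edgeR adjusted p = 0.0774). For Nox1, whose CD44minus reads were at background, no fold or test between gates is given. Cyba was higher by 0.73 (SE 0.66, edgeR adjusted p = 0.532) in Sox4cKO and 1.85 (SE 0.70, edgeR adjusted p = 0.149) in control. Both gates of an animal were sequenced, and with the animal as a block Noxa1 (edgeR adjusted p = 0.0486) was also called in Sox4cKO and Cyba (0.0291) in control, where 8.38% and 17.9% of all genes were called. Nox1 also passed in Sox4cKO under this block, on CD44minus reads at background, and nothing is read from that call.

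Duox2 and Duoxa2 were not called between gates. Duox2 differed between gates by a log2 value of -0.88 (SE 0.84, edgeR adjusted p = 0.549) in Sox4cKO and 0.0086 (SE 0.84, edgeR adjusted p = 0.995) in control, and Duoxa2 by -0.73 (SE 0.64, adjusted p = 0.523) and -0.38 (SE 0.67, adjusted p = 0.688). The gates overlapped in both genotypes for both genes, and the sign of each turned under some settings. The Duox1 value was -1.998 (SE 0.96, edgeR adjusted p = 0.29) in Sox4cKO and -1.80 (SE 0.95, edgeR adjusted p = 0.246) in control. Its reads were few and background may be part of them, so no gate direction is read from it. Noxo1 differed by 0.28 (SE 0.68, edgeR adjusted p = 0.819) in Sox4cKO and 1.30 (SE 0.70, edgeR adjusted p = 0.251) in control. In the test of whether the gate difference depended on genotype, edgeR called 0 of all genes (0.0%), with 50 genes at an unadjusted p under 0.05 and 0 called by DESeq2 and limma-voom.

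The 2 calls depended on the libraries used. Nos2 in Sox4cKO was called under 11 of 17 alternatives and Noxa1 in control under 13 of 17, with the animal as a block among them (edgeR adjusted p = 0.0181 and 0.00399). The Nos2 call in Sox4cKO was lost without Sox4cKO CD44plus replicate 1 (-3.86, edgeR adjusted p = 0.0867) or replicate 2 (-3.32, 0.769), and without control CD44plus replicate 1 (0.108), control CD44plus replicate 2 (0.102) or control CD44minus replicate 2 (0.0647). It was also lost with the Sox4cKO libraries alone (-3.51, edgeR adjusted p = 0.0974). Without Sox4cKO CD44minus replicate 2 it was called at a smaller log2 value (-2.42, edgeR adjusted p = 0.00399), where the lone Sox4cKO CD44minus library is assumed to vary like the other groups. The Noxa1 call in control was lost without any 1 of the control libraries (edgeR adjusted p 0.189 to 0.38), with log2 values of 2.48 to 3.03. The summed level of 7 villus enterocyte genes, such as Apoa4 and Fabp1, was 7565 and 39627 CPM in Sox4cKO CD44minus against 9815 and 18707 CPM in control CD44minus, and 789.6 to 1167 CPM in CD44plus. The part of cell composition in these gate differences was not tested.

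**Figure D5:**
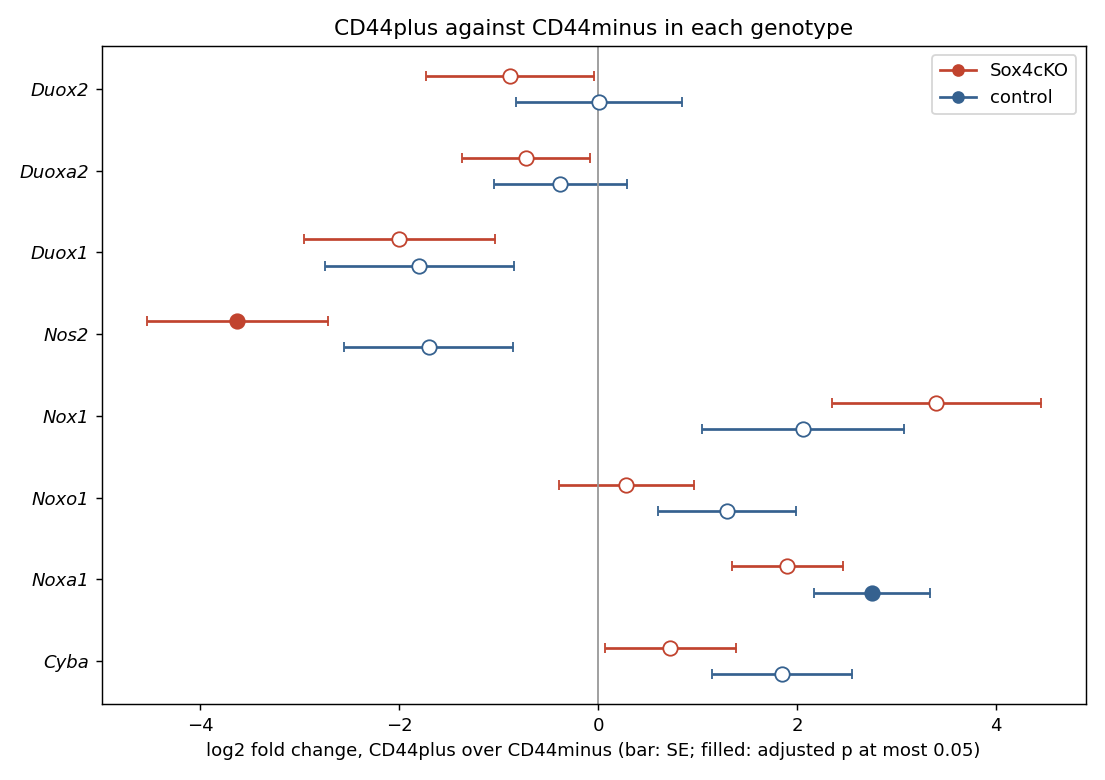
Log2 fold change, CD44plus over CD44minus, of each gene in Sox4cKO and in control, with the SE of the edgeR fit as bars and filled points where the adjusted p was at most 0.05. Nos2 in Sox4cKO (-3.63) and Noxa1 in control (2.75) are filled. The values of Nox1 rest on 3 or 4 reads per CD44minus library, at background.

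Per kilobase of merged exon, the order of levels differed between gates. In Sox4cKO CD44minus Nos2 was highest, at 50.2 and 180.3 CPM per kb, then Duox2 at 34.6 and 97.1, Cyba at 12.9 and 54.8, Duoxa2 at 14.9 and 44.5 and Noxo1 at 7.72 and 34.7. In control CD44minus Nos2 (9.16 and 29.8 CPM per kb) and Duox2 (9.15 and 24.7) also led. Neighbours in this order overlapped down to Noxa1, and Duox1 and Nox1 lay below the rest in both genotypes. In CD44plus Cyba and Noxa1, partners of NOX1, led: Cyba was at 46.8 and 66.3 CPM per kb in Sox4cKO and 33.5 and 44.7 in control, and Noxa1 at 40.1 and 39.7 in Sox4cKO and 43.0 and 41.2 in control. Duox2 was at 45.7 and 25.7 CPM per kb in Sox4cKO CD44plus, around Noxa1 and below Cyba, and at 13.7 and 20.5 in control CD44plus, below both. Noxo1, the other partner, was at 25.3 and 26.6 CPM per kb in Sox4cKO CD44plus and 22.3 and 26.7 in control CD44plus. Nox1 itself, at 5.25 and 2.98 CPM per kb in Sox4cKO CD44plus and 1.84 and 3.48 in control CD44plus, lay far below its partners, and Duox1 was lowest in that gate.

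Other genes of these systems, from lists drawn up by function, gave few calls. Of 9 other NADPH oxidase genes, 7 had a positive log2 fold change, Sox4cKO over control, in CD44plus (median 0.70 against -0.00052 for all genes) and 5 in CD44minus (0.10 against 0.19), with 0 called. The highest were the GTPase gene Rac1 (251 and 268 CPM in Sox4cKO CD44plus against 222 and 229 CPM in control CD44plus) and the phagocyte and lymphocyte genes Rac2 (94.3 and 262 against 66.3 and 121 CPM) and Ncf1 (71.7 and 235 against 50.8 and 94.8 CPM). Rac2 and Ncf1 were highest in Sox4cKO CD44plus replicate 2, the library with the most T cell, mast cell and phagocyte RNA. Between gates Rac2 rose in CD44plus in Sox4cKO (3.91, edgeR adjusted p = 0.0168) and in control (3.69, edgeR adjusted p = 0.0244), and Ncf1 rose in Sox4cKO (3.43, edgeR adjusted p = 0.0217). Rac2 in control CD44minus had 5 and 27 reads where background predicted 6.35 and 6.28, so the size of its fold is uncertain. The T cell genes summed to 1540 to 4049 CPM in CD44plus against 121 to 578 CPM in CD44minus, and the mast cell genes to 1884 to 17499 against 52.3 to 75.2 CPM. The part of these cells in the calls was not tested.

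Of 19 nitric oxide pathway genes, which supply arginine and cofactor or sense nitric oxide, 12 were positive in CD44minus (median 0.23 against 0.19 for all genes) and 11 in CD44plus (0.042), with 0 called, so the medians were close to those of all genes. Slc7a1, an arginine carrier, was at 42.6 and 70.8 CPM in Sox4cKO CD44minus against 47.2 and 49.9 CPM in control CD44minus. Arg2, an arginase that uses the same substrate, was at 43.6 and 279.8 CPM against 85.5 and 116 CPM. Nostrin, whose product binds the endothelial nitric oxide synthase, was at 56.0 and 222 CPM in Sox4cKO CD44minus against 43.8 and 94.0 CPM in control CD44minus. All 3 overlapped between genotypes.

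Of 23 genes that handle peroxide and superoxide, 17 were positive in CD44minus (median 0.70 against 0.19 for all genes) and 12 in CD44plus (0.047), with 0 called. The highest were Gpx1, a glutathione peroxidase gene (359 and 364 CPM in Sox4cKO CD44plus against 337 and 389 CPM in control CD44plus), the thioredoxin reductase gene Txnrd1 (365 and 322 against 287 and 282 CPM) and Gpx2. Gpx2, the glutathione peroxidase of the gut epithelium, was at 360.4 and 227 CPM in Sox4cKO CD44plus against 202 and 245 CPM in control CD44plus. Between gates Prdx4, a peroxiredoxin gene, was called higher in control CD44plus (edgeR adjusted p = 0.0275). Its 3 and 10 reads in control CD44minus, where background predicted 4.31 and 4.26, allow no size for this difference. Of 25 genes of microbial sensing and cytokine signalling, 22 were positive in CD44minus (median 0.87 against 0.19 for all genes). In CD44plus 19 were positive (0.32 against -0.00052), with 0 called in either gate. The highest were Nfkbiz, an NF-kB regulator (109 and 489.6 CPM in Sox4cKO CD44minus against 101 and 198 CPM in control CD44minus), the interferon-induced factor gene Irf1 (88.1 and 449 against 68.7 and 186 CPM) and Il22ra1. Il22ra1, the epithelial receptor for interleukin 22, was at 166 and 667 CPM in Sox4cKO CD44minus against 111 and 230.4 CPM in control CD44minus, and at 114 and 104 CPM against 119.7 and 114 CPM in CD44plus. The highest values of Nfkbiz, Irf1 and Il22ra1 were again in Sox4cKO CD44minus replicate 2. The 5 epithelial markers summed to 17643 CPM in that library against 3119 to 6515 CPM in the rest of the gate. Its TMM factor of 0.527 raises all these CPM values. These lists were not set against those markers, and no genotype difference is read from their medians.

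Likeness of profile was measured as the root mean square difference of centred log2(CPM + 1) over the 8 libraries, among 13482 genes with at least 10 reads in each CD44plus library. The gene most like Duox2 was Duoxa2 (0.14), followed by the antimicrobial lectin gene Reg3g (0.41) and the gasdermin gene Gsdmc4 (0.41), which has close paralogs and an uncertain count. Reg3g was at 3199.9 and 1786 CPM in Sox4cKO CD44plus against 678 and 1242 CPM in control CD44plus. In CD44minus it was at 1666 and 10163 CPM in Sox4cKO against 678 and 2670 CPM in control. Nos2 was only in place 6513 of that order. Nos2 was most like Tmigd1 (0.49), Mgat4c (0.59) and Slc13a1 (0.60), Nox1 like Cmss1 (0.32) and Rcl1 (0.33), and Cyba most like Shisa5 (0.17), Hn1 (0.22) and Pglyrp1 (0.24). The likeness of Nox1 includes its CD44minus reads, which were at background.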

How the data were processed

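The authors deposited raw read counts per gene symbol, 1 HTSeq table for each of 8 libraries made from total RNA of sorted cells. The submitters' processing notes name the mm10 build, STAR 2.2.5b, HTSeq 0.6.1p1, Trimmomatic 0.36 and bcl2fastq 2.17.4. Their settings and the strand setting are not given in the sources used here. HTSeq summary lines stayed out of library sizes; of uniquely placed reads, 64.6 to 96.6% were counted to no gene.

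The tests ran edgeR 4.0.16 under R 4.3.3 (quasi-likelihood test, TMM scaling, filterByExpr with a minimum count of 10, 4 groups, Benjamini-Hochberg threshold 0.05 over 20427 genes). DESeq2 1.42.0, limma 3.58.1 (voom), other scaling and filters, fits of part of the libraries, left-out libraries and an animal block were tried. The script was tested on simulated data. Replicate numbers mark animals: the file names give both gates of an animal the same number. Deviations from group means correlated at 0.526 in Sox4cKO and 0.103 in control between gates. Between control and Sox4cKO animals of 1 number they correlated at 0.60 in CD44minus and 0.275 in CD44plus. These correlations therefore cannot tell whether 2 libraries share an animal, and the pairing rests on the file names. The labels give no link between control and Sox4cKO libraries of 1 number. Symbols were matched to GENCODE (GRCm38): 21732 by symbol, 1273 by a RefSeq synonym and 361 not. Predicted background is receptor gene reads per kilobase of coding sequence times a gene's merged exon length. The 8 genes, and the gene lists, were chosen with earlier results of these data known. All 8 are named, with the genes of each list that passed between gates and, for genotype, the 3 of highest mean CPM. For likeness, the closest genes by root mean square difference are named, of which 1 for Nox1 is not reported here.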

Additional observations from a re-analysis of the deposited data

Results flagged for a closer look

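Noxa1, the activator of NOX1, had log2 fold changes between genotypes of opposite sign in the gates. That in CD44plus was small (1.06-fold) against its SE, and no direction is read from it. Both Sox4cKO CD44plus libraries (64.8 and 64.1 CPM) lay below both control CD44plus libraries (69.5 and 66.7 CPM), whereas both Sox4cKO CD44minus libraries (14.4 and 19.9 CPM) lay above both control CD44minus libraries (12.1 and 8.26 CPM). Over all genes tested, 16.4% lay below without overlap in CD44plus and 6.52% above in CD44minus. The difference of the log2 fold changes, CD44plus minus CD44minus, was -0.85 (SE 0.78), of which CD44plus gave -0.079 (SE 0.53) and CD44minus 0.77 (SE 0.58). The difference is not tested here, since the genes were chosen with these effects known. Relative to the 5 epithelial markers the CD44minus groups overlapped, at 0.457 and 0.113% in Sox4cKO against 0.389 and 0.127% in control.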

How the results depend on the processing

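Precision was limited by 2 libraries per group, 10 to 92 reads of Duoxa2 and Duox2 in the shallowest library and a biological coefficient of variation of 0.616. The differences of Duox2, Duoxa2, Nos2 and Cyba between genotypes kept their sign under all 18 alternatives in each gate; the calls lost are given above. Called between genotypes in CD44plus were 17 genes (all lower) with CD44plus libraries only, 18 with the replicate number as replicate block (4 higher, 14 lower), 11 without both libraries of Sox4cKO animal 2 (added after seeing the data) and 0 to 24 with single libraries left out. Libraries of 1 number also deviated together between genotypes (correlations of 0.60 in CD44minus and 0.275 in CD44plus), a hint from the data, not the design. In CD44minus the replicate block called 0 and left-out libraries 0 to 7613, the most without Sox4cKO CD44minus replicate 1. Between gates in control, the 502 calls became 3659 with the animal as replicate block, 2099 after background subtraction, 9877 with control libraries only, 2080 with DESeq2, 2176 with limma-voom, 994 without the filter, 1065 without Rn45s, 10174 without animal 2 and 0 to 7362 with single libraries left out. In Sox4cKO the 529 calls became 1712, 1927, 0 (Sox4cKO libraries only), 1737, 1105, 884, 1018, 6097 and 11 to 8440 in the same order. The difference between gates had 3 calls without animal 2 and 0 to 254 with single libraries left out. The cause was not tested. RLE scaling moved the median of all genes from -0.19 to -0.52 in control and from -0.48 to -0.72 in Sox4cKO. The gate value of Duox2 in control took the other sign with RLE scaling (-0.29), DESeq2 (-0.29), without Rn45s (-0.070), after background subtraction (-0.39), with control libraries only (-0.20), without animal 2 (-0.0023) and in the range of left-out libraries (-0.54 to 0.89). With single libraries left out, the gate value of Duoxa2 in control ran from -0.98 to 0.79. In Sox4cKO the gate values ran from -1.45 to 0.053 for Duox2, from -1.30 to 0.28 for Duoxa2, from -3.45 to 0.029 for Duox1 and from -0.42 to 1.76 for Noxo1. Without animal 2 they were 0.40 for Duox2 and 0.62 for Duoxa2.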
